A study of Homo sapiens with 5 samples.

Results

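The LINC02055 nuclei are the nuclei in a mixture of 5 human lung adenocarcinoma cell lines whose RNA was richest in a pair of long non-coding RNAs, LINC02055 and AC069277.1. They numbered 1197 of the 6557 barcodes of the larger sequencing portion, or 18.3% (exact 95% binomial interval 17.3 to 19.2%). The nuclei were chosen by measured values. The 6 panels of 2 genes each were MEG3 with MEG8, LINC02055 with AC069277.1, ALDH1A1 with TM4SF4, AL356804.1 with AL683807.1, TAGLN with MGP and EGFR with AC090578.1. A nucleus was a member when its LINC02055 panel led the other 5. The value of a panel was its share of the unique molecules (UMIs) of the nucleus divided by the 98th percentile of that share over all barcodes, and the leading value had to be at least 0.2 and at least 2 times the second. The same rule gave 1633 MEG3 nuclei, 1328 ALDH1A1 nuclei, 405 AL356804.1 nuclei, 297 TAGLN nuclei and 300 EGFR nuclei, and left 1397 barcodes unassigned.

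The lines, namely HCC827, H838, H2228, H1975 and A549, were grown apart with no drug or other agent named in the labels, frozen, mixed in equal numbers and taken through nuclei isolation and the 10× Multiome protocol, which reads RNA and open chromatin (ATAC) under one barcode per nucleus. The droplets were divided into an 80% and a 20% portion, 1 short-read RNA library and 1 ATAC library were made from either of them, and the 20% portion also has long-read RNA counts. All classes of nuclei come from the same mixture and the same libraries, so there are no replicates and no difference between classes carries a test. No nucleus was assigned to a line here, so a class may hold nuclei of more than 1 line. Values are pooled over the nuclei of a class and given as CPM, the UMIs of a gene or the ATAC counts of a peak scaled to a class total of 1000000, and intervals cover counting error only. The members held 16415111 UMIs and 8087989 ATAC counts in the 80% portion and 2373029 UMIs and 1545433 ATAC counts in the 20% portion.

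Long non-coding RNAs are transcripts without a known protein product, many of which are found in only a few cell types and stay in the nucleus, so that nuclear RNA libraries hold many of them. ATAC sequencing marks stretches of DNA that are free enough of nucleosomes to be cut, mostly at gene starts and at distal regulatory elements. Lung adenocarcinoma lines range from an epithelial state, with E-cadherin, EPCAM and keratins, to a mesenchymal state, and also differ in chromosome content.

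The first question was how clearly the rule marked these nuclei. LINC02055, on chromosome 8 (hg38, 135859369 to 137092183, plus strand), was at 319.7 CPM in LINC02055 nuclei (exact 95% Poisson interval 311 to 328), at 14.5 CPM in TAGLN nuclei, 6.78 in AL356804.1 nuclei, 4.19 in EGFR nuclei, 2.76 in MEG3 nuclei and 2.09 in ALDH1A1 nuclei. AC069277.1, on chromosome 3 (6490460 to 6736750, plus strand), was at 401 CPM (391 to 411) and at 18.2, 8.03, 10.5, 2.22 and 1.47 CPM in the same order of classes. Both therefore stood 22.1-fold over the TAGLN nuclei, the next class, a separation that the rule itself fixed. A LINC02055 UMI was seen in 96.0% of the members and an AC069277.1 UMI in 96.8%, with a median of 4 and 5 UMIs. Among TAGLN nuclei, with a median depth of 14186 UMIs against 12963 in members, the shares were 7.74% and 8.75%, and in ALDH1A1 nuclei, at 9110 UMIs, they were 1.43% and 0.828%. The panel value of the members ranged from 0.202 to 2.91 with a median of 0.568, and 46 of them lay between 0.2 and 0.25. The highest value left under the floor rounds to the floor itself, the smallest lead among members was 2 times and the largest lead that missed was 1.95 times. In all, 99 barcodes were led by this panel but stayed under the floor, and 152 missed the lead.

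In the 20% portion, which the rule as written did not use, the same panels with their own percentiles gave 221 members of 1286 barcodes, or 17.2% (15.2 to 19.4%). There LINC02055 was at 332 CPM against 0.851 to 27.5 in the other 5 classes, and AC069277.1 at 420.1 against 1.70 to 32.8. A barcode sequence was called in both portions 159 times, and 21 of the 1197 members (1.75%) and 26 of the 221 (11.8%) carried such a barcode, 16 of which were members on both sides. Leaving these barcodes out gave 17.3% for the 20% portion. The members of the 80% portion held a median of 12963 UMIs (order-statistic 95% interval 12741 to 13244), 4827 detected genes and 0.606% mitochondrial UMIs. After thinning every nucleus to 5000 UMIs, which left out 10 members, the median was 2720 genes, and the other 5 classes lay between 2582.5 and 2691. Their median ATAC count was 6581, the lowest of the 6 classes, with the others at 7310 to 11540, and in the 20% portion it was 6973 against 7926 to 12734.5. Doublet calls fell on 27 members (2.26%, 1.49 to 3.26%) and on 231 of the unassigned barcodes (16.5%). A long-read count was present for 220 of the 221 members of the 20% portion, with a median of 27176 (26375 to 28586). No source used here says whether reads or molecules were counted.

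Within 500 kb of LINC02055, KHDRBS3, an RNA-binding protein gene, was at 2.19 CPM in members and at 5.26 to 60.7 in the other classes. The non-coding genes AC040914.1, AC103955.1 and AC023781.1 had at most 1 UMI in the members. Near AC069277.1, GRM7-AS3 was at 30.6 CPM in members and at most at 2.16 elsewhere, but it overlaps AC069277.1 on the other strand, with the strand setting of the counting not given in the sources used here, so that their reads may be mixed. GRM7, a metabotropic glutamate receptor, was at 1.77 CPM with 29 UMIs against 0 to 0.432, AC026167.1 had 2 UMIs and GRM7-AS2 none, which allows up to 0.225 CPM. The ATAC peaks at the annotated starts of LINC02055 summed to 15 ATAC CPM in members and 0 to 1.69 in the other classes, and those of AC069277.1 to 17.1 against 0.209 to 1.17. Inside LINC02055 the strongest peak of the 14 that lie within 100 kb of one of its starts, an intronic one at chr8:136404006-136404934, was at 14.1 CPM against 0 to 1.35, and the peak at one of its annotated starts, chr8:136530228-136531048, at 11.1 against 0 to 1.69. In the 20% portion these peaks were at 11.6 CPM against 0 to 8.59 and at 12.9 against 0 to 4.29. ATAC counts, a readout that did not choose the nuclei, were thus highest at these sites in the nuclei that held the RNA, with a smaller gap in the 20% portion.

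Genes outside the panel were then compared between LINC02055 nuclei and the other 5 classes. A gene is called higher when its CPM in members was at least 20 and at least 2-fold over the highest of the other classes, and lower when it was at least 2-fold under the lowest of them with at least 20 CPM in each. In the 80% RNA 436 of 7653 genes were higher (5.70%, the share that serves as background below), and 203 of 6016 were lower (3.37%). The thinnest of the 7653 tested genes had 329 UMIs in members, for which the exact 95% Poisson interval runs from 89.5 to 111% of the value. In the 20% RNA the same thresholds called 369 of 7799 genes higher (4.73%) and 169 of 5945 lower (2.84%). Of the 434 higher genes other than the panel genes, 324 (74.7%) were at least 2-fold over the highest other class in the 20% RNA as well and 432 were highest in its LINC02055 nuclei, against 0.471% of the genes not called higher that passed 2-fold there. Of the 203 lower genes 134 (66.0%) passed in the 20% RNA and 200 were lowest. The log2 ratio of members to the mean of the other classes had a Pearson r of 0.964 between the portions across 10233 genes, which are not independent and come from one mixture. Long non-coding RNAs made up 18.2% of the higher genes and 3.58% of the genes tested for being higher. Some of them reached the minimum of 20 CPM through the members alone, such as LINC01205 at 47.2 CPM against at most 1.51. The gap between these shares is thus partly fixed by that minimum, and nothing is read from it. Long non-coding RNAs made up 9.36% of the lower genes, whose tested set differs and has no such share given here.

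**Figure D1:**
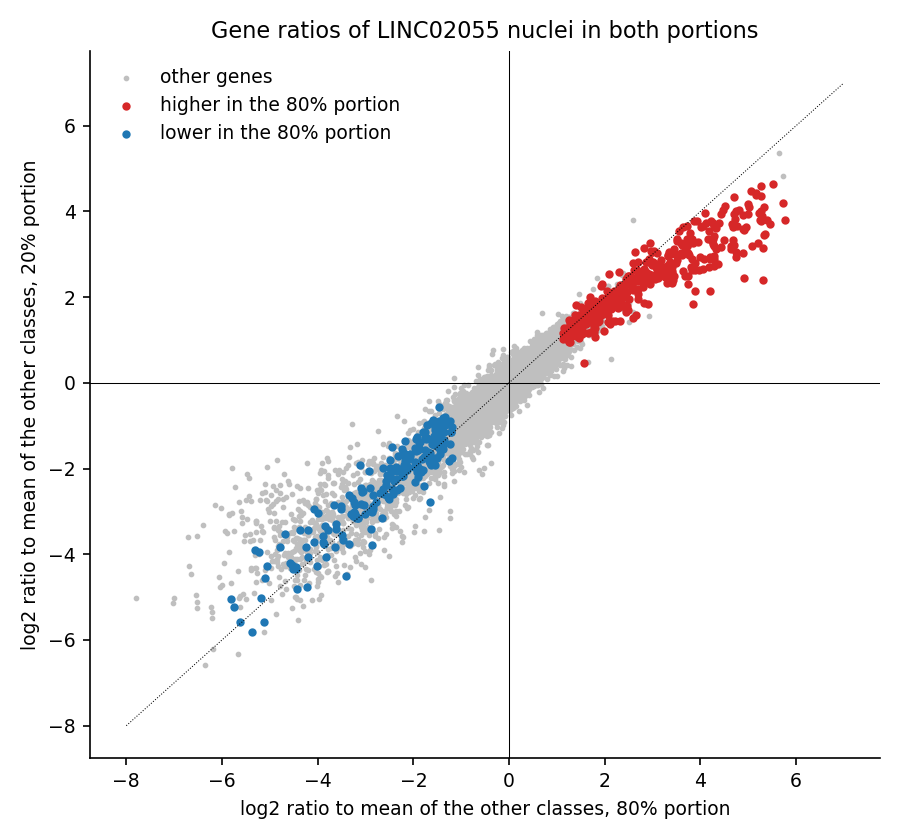
Log2 ratio of the CPM of LINC02055 nuclei to the mean of the other 5 classes, 80% portion on the x axis and 20% portion on the y axis, 1 point per gene. Of the 434 higher genes (red) 432 were highest and of the 203 lower genes (blue) 200 were lowest in the 20% portion too, with r = 0.964 over all 10233 genes.

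The 25 genes with the largest ratio over the next class held 15 long non-coding RNAs. LINC01205 on chromosome 3 (109409990 to 109723273) was at 47.2 CPM in members (43.9 to 50.6) and at 0.233 to 1.51 in the other classes, a 31.2-fold difference that was 5.62-fold in the 20% portion. AC011029.1 on chromosome 8 was at 93.5 CPM against 0.464 to 3.89, or 24-fold, and 11.7-fold in the 20% portion. LINC02335 on chromosome 13 was at 51.0 CPM against 0.387 to 2.59, LINC01194 on chromosome 5 at 139 against 1.13 to 8.75, and MIR548XHG, a microRNA host gene on chromosome 21, at 104 against 0.799 to 6.27. None of these genes passed 10 CPM in any of the other 5 classes of the 80% portion. AL135878.1 (22.2 CPM), AL353072.2 (32.1), ZBTB46-AS1 (76.2), LINC02125 (26.7), LINC02267 (73.3), AL031073.2 (74.3), AC015574.1 (96.9), GRM7-AS3 (30.6), AP000561.1 (42.0) and LINC00383 (50.8) completed the non-coding genes. These 10 genes lie on 10 different chromosomes.

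The 25 also held 10 protein-coding genes, described here by what each is known for. MAGEA1 and MAGEA10 encode cancer-testis antigens, proteins of the male germ line that some tumours make. MAGEA1 was at 99.2 CPM in members and at 3.26 to 7.13 in the other classes, and MAGEA10 at 200 against 4.97 to 14.5, with a UMI in 88.6% of the members and in at most 13.1% of another class. Reads of near-identical MAGE copies may be divided among them, so single values of that family are uncertain. PASD1, another cancer-testis antigen on the X chromosome, was at 44 CPM against 0.690 to 2.38, and RBM46, an RNA-binding protein of germ cells on chromosome 4, at 49.2 against 0.698 to 2.16. SLC30A8, which encodes the zinc transporter of insulin granules, was at 141 CPM against 1.02 to 10.2, and PTPRN, a membrane protein of dense-core secretory granules, at 78.9 against 1.93 to 4.97. In every other class of the 80% portion these 6 genes stayed under 15 CPM, while MAGEA10 reached 34.4 CPM in another class of the 20% portion, with 204 in members. THY1, a surface glycoprotein also used as a fibroblast marker, was at 26.7 CPM against 1.23 to 1.55. RUBCNL, a regulator of autophagosome maturation, was at 29.1 CPM against 0.232 to 1.23 and showed the smallest ratio of the 25 in the 20% portion, 2.12-fold, where TAGLN nuclei were at 12.5 CPM. TVP23A, a Golgi membrane protein gene, was at 28.1 CPM against 0.698 to 1.95, and MTUS2, a microtubule-associated protein gene, at 21.0 against 0.698 to 1.51. All 25 were at least 2-fold over the highest other class in both portions, with a median of 15.9-fold in the 80% and 5.94-fold in the 20% portion.

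The next class was that of the TAGLN nuclei for 21 of the 25 genes in the 80% portion and for 24 in the 20% portion, and its level was a median of 6.30% of that of the members. Of the 297 TAGLN nuclei, 29 held a UMI of the LINC02055 panel, 19 of these had mostly LINC02055 nuclei around them in the ATAC data, and 8 were doublet calls. Without these 29 nuclei the level of the 25 genes in TAGLN nuclei was a median of 0.656% of that of the members and the median ratio rose to 33.1-fold, an alternative added after the data were seen. These 29 nuclei were set apart by the panel genes that the membership rule used, so the lower level without them is a description of that split and nothing is read from it about the TAGLN nuclei.

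The 15 genes lowest against every other class were expressed in all of the others. GPC6, a cell-surface heparan sulfate proteoglycan, was at 13.2 CPM in members (11.5 to 15.1) and at 1017 in TAGLN, 822 in EGFR, 611 in AL356804.1, 479 in MEG3 and 321 in ALDH1A1 nuclei, 24.3-fold under the lowest of them and 24.1-fold in the 20% portion. SYT1, the calcium sensor of synaptic vesicles, was at 4.93 CPM against 86.9 to 324, and PCLO, a scaffold protein of the presynaptic active zone, at 1.28 against 25.1 to 110.3. Of the 3, PCLO came closest to the threshold of 20 CPM in another class. SLC4A4, a sodium bicarbonate cotransporter, was at 1.22 CPM against 22.7 to 48.5, and ATP10A, a lipid flippase, at 1.40 against 24.4 to 68.9. ZNF254, a zinc finger gene of the chromosome 19 cluster, was at 2.56 CPM against 39.8 to 92.2, and its start peaks were at 1.85 ATAC CPM against 35.1 to 97.9. BMPR1B, a receptor for bone morphogenetic proteins, was at 5.36 CPM against 67.1 to 277, and EPS8, a substrate of the EGF receptor that caps actin, at 14.1 against 118 to 326. For the other 7 (GULP1, FAM13A, MIR181A1HG, ARHGAP24, GALNT18, MACROD2 and NR2F1-AS1) the member level was 1.89 to 5.36 CPM and the lowest other class was 10 to 15 times higher. All 15 were at least 2-fold lower in the 20% portion too, by 4.58- to 24.1-fold. The genes with the most UMIs in members, without regard to length, were MALAT1 with 32764 CPM, EEF1A1 with 5217, RPLP1 with 4149, GAPDH with 3862 and LDHB with 3840.1. Of these only LDHB, a lactate dehydrogenase subunit, was higher by the rule, with 858 to 1341 CPM in the other classes.

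The 10 genes whose level followed LINC02055 most closely over the 12 class values of both portions had a Pearson r of log CPM from 0.9754 to 0.9919. This is a description, since the nuclei were chosen by LINC02055. The closest was AL139042.1, a long non-coding RNA of chromosome 6, at 162 CPM against 1.32 to 12.8, followed by LINC02335 and by CARD18, an inhibitor of caspase-1, at 294 CPM against 1.39 to 22.3. AC011029.1, AC011246.1 (168 CPM against 1.89 to 14.0), AC012184.4 (144 against 6.68 to 19.0) and AC004949.1 (279.6 against 2.17 to 21.8) were the other non-coding genes. TNFRSF11B, the decoy receptor osteoprotegerin, was at 129 CPM against 5.03 to 14.9, HOXD10, a homeobox factor, at 58.5 against 0.690 to 4.97, and ITPR2, a calcium release channel of the endoplasmic reticulum, at 1044 against 44.3 to 164.

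Gene lists were described by the genes with at least 20 CPM in any class and their log2 ratio to the mean of the other 5 classes. Over all 10233 such genes the median was -0.09, 958 (9.36%) were at least 2-fold over the mean and 1857 (18.1%) at least 2-fold under it, and in the 20% portion the same genes gave 873 (8.53%) and 1870 (18.3%). In the lists below THY1, COL4A1, LAMC3, ALDH1L2, SULT1A1, AHRR, HOXD10 and CSMD1 reached 20 CPM in the LINC02055 nuclei and in no other class of the 80% portion, so their place over the mean was fixed by this minimum and supports nothing about their lists. The mean of 5 classes follows the highest of them, so the median ratio to the median class is also given for each list where it differs by over 0.5. "Over" and "under" refer to these 2-fold thresholds, and the few genes of a list on one side are named whatever their rank, after their values were seen.

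The epithelial list stood lowest together with the lineage factors. None of its 17 measured genes was over and 17 were under the mean, with a median of -3.78 in the 80% and -3.56 in the 20% portion, and -2.03 against the median class. EPCAM, an epithelial adhesion molecule, was at 26 CPM in members, 40.2 in ALDH1A1, 68.9 in TAGLN, 106 in MEG3, 644 in AL356804.1 and 787 in EGFR nuclei, and CDH1, which encodes E-cadherin, was at 4.93 against 6.35 to 202. GRHL2 (0.305 CPM against 0.387 to 103) and ESRP1 (0.853 against 0.851 to 102), both regulators of the epithelial state, and RAB25 (0.305 against 0.432 to 20.9) and CLDN7 (5.42 against 12.8 to 307) were at or under the lowest of the other classes. These genes were low in several classes, and the LINC02055 nuclei were at or near the bottom of the range. Of the simple epithelial keratins, KRT8 was at 499.6 CPM against 589 to 2958, KRT18 at 723 against 609 to 6079.9, KRT7 at 313 against 1044 to 2406 and KRT19 at 117 against 455 to 1581. RNA free in the droplets was not removed, and ALDH1A1, the gene that marks another class at 5676 CPM, was at 101 CPM with a UMI in 64.7% of the members, so that low levels of genes abundant in other classes are not read as expression. The start peaks of KRT19 were at 2.47 ATAC CPM in members against 8.62 to 43.8. Of the 8 measured keratins 7 were under the mean and 1 was over it (median -2.07, and -1.17 against the median class), KRT17, a keratin of basal cells, at 488 CPM against 167 in TAGLN nuclei and 15.4 to 27.5 in the others.

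Of the 17 measured genes of the mesenchymal list 3 were over and 10 under the mean, with a median of -1.80 and of -0.67 against the median class. Over it were THY1, SPARC, a matrix glycoprotein, at 258 CPM against 15.7 to 258, and ZEB2, a repressor of epithelial genes, at 46.5 against 5.95 to 41.4, while COL1A2, a fibrillar collagen, was at 0.609 CPM against 0.697 to 74.8, CDH11 at 21.0 against 18.2 to 656 and CDH2, which encodes N-cadherin, at 1.77 against 0.944 to 53.3. The 19 measured collagen genes gave 2 over, COL12A1 (139.5 CPM against 9.67 to 120.2) and COL4A1 (34.1 against 3.46 to 17.2), and 9 under (median -0.70), and the 18 integrin and laminin genes 1 over, LAMC3 (21 CPM against 0.692 to 10.7), and 7 under (-0.79, and 0.00 against the median class). COL5A1 was at 9.32 CPM against 13.2 to 370.2 and COL8A1 at 1.28 against 1.01 to 129.7, and ITGB6, an integrin subunit of epithelia, was at 1.34 against 2.24 to 58.6. As markers of other cell types, none of 16 leukocyte and 8 endothelial genes reached 20 CPM in any class, and PTPRC, the pan-leukocyte marker, was at 0.0609 CPM in members. Of 10 fibroblast markers 4 were measured, 3 of them under the mean, with a median of -1.60, and -0.23 against the median class, a sum of 69.4 CPM against 26.8 to 405 and THY1 the most abundant of them in members at 26.7, while COL3A1 was at 0.0609.

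All 11 measured lung and foregut factors were under the mean, with a median of -3.96 in the 80% and -3.41 in the 20% portion, -3.32 against the median class and a sum of 45.4 CPM against 156 to 408. HNF4G was at 1.22 CPM against 2.59 to 121, HNF4A at 0.426 against 0.218 to 32.7 and SFTA3, a transcript beside the lung factor gene NKX2-1, at 1.52 against 2.01 to 39.6. All 5 measured mucins were under the mean as well (median -3.00, and -1.25 against the median class), with MUC1 at 35.6 CPM against 31.7 to 302, MUC4 at 2.01 against 2.79 to 48.4, MUC5B at 3.53 against 3.46 to 92.8, MUC5AC at 15.2 against 10.2 to 544 and MUC16 at 17.2 against 7.2 to 115.

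Of 18 measured receptor kinases and ligands 13 were under and 1 over the mean (median -2.17, and -1.27 against the median class). EGFR, the receptor of epidermal growth factor, was at 83.8 CPM (79.5 to 88.4) in members, 234 in ALDH1A1, 352 in TAGLN, 432 in AL356804.1, 482 in MEG3 and 7692 in EGFR nuclei, and its ligand EREG at 7.31 against 30.3 to 294. The 1 over the mean was IGF1R, the receptor of insulin-like growth factors, at 924 CPM against 140.3 to 522. ALK, a receptor kinase that is rearranged in some lung cancers, was at 4.08 CPM against 3.95 to 15.3, within the range of the other classes. MAPK output and feedback genes, which rise with ERK activity, gave 10 under and none over the mean among 16 (median -1.68, and -1.52 against the median class). Among them DUSP6 was at 1.95 CPM against 8.64 to 31.7, SPRY1 at 1.64 against 8.13 to 35.6, EGR1 at 9.26 against 54.5 to 128 and EPHA4 at 0.548 against 5.96 to 27.7, the lowest of all classes each time. AP-1 factor genes were mixed, with 1 of 11 over and 3 under (median -0.36, and 0.03 against the median class). JUN was at 16.3 CPM against 81.2 to 498 and FOSL1 at 38.4 against 85.3 to 274, FOSB at 2.38 against 1.27 to 28.9, and MAFK, a small Maf factor, at 71.3 against 12.6 to 40.6.

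Among 26 measured interferon-stimulated genes 20 were under and none over the mean (median -2.23, and -1.64 against the median class), and 21 under in the 20% portion. OAS3, an antiviral sensor, was at 0.487 CPM against 8.86 to 26.1 and SAMD9 at 3.41 against 7.82 to 93.8, while IFI44L (2.56 CPM) and XAF1 (0.853) were at 2.63 and 0.232 in ALDH1A1 nuclei and at up to 105 and 32.6 elsewhere. Of 15 MHC class I genes 7 were under the mean (median -0.94), with HLA-B at 73.9 CPM against 114 to 684, HLA-C at 70.1 against 109 to 642, HLA-F at 3.23 against 8.36 to 26.7 and ERAP2, a peptidase that trims presented peptides, at 6.82 against 11.9 to 124. The 7 measured checkpoint ligand genes gave 1 over and 3 under (median -0.46), with CD274, which encodes PD-L1, at 2.31 CPM against 1.24 to 39.9, CD47 at 53.7 against 55.8 to 236, IDO1 at 11.9 against 8.98 to 117 and VSIR at 24.1 against 5.40 to 20.5. Among 13 chemokines and cytokines 3 were over and 5 under (median -0.34), with CXCL5 at 0.975, CXCL3 at 1.04, CXCL1 at 3.05, CXCL2 at 4.69 and TGFB2 at 40.9 CPM, each below all other classes, and IL11 (66.7), TGFB1 (77.9) and CCL2 (47.6), each above them.

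Xenobiotic metabolism was the list with the highest median, 0.61 and 1.56 against the median class, with 4 of 12 genes over and 4 under the mean. Both medians count SULT1A1 and AHRR, which reached the minimum level through the members alone, as given above. No median without these genes was computed, so nothing is read from the medians of this list or from its rank. GSTM3, a glutathione transferase, was at 395 CPM against 37.5 to 77.8 and SULT1A1, a sulfotransferase, at 24.8 against 2.33 to 15.7, ARNT at 79 against 24.2 to 46.9 and AHRR at 25.3 against 3.70 to 14.7. Under the mean were AHR, the aryl hydrocarbon receptor, at 115 CPM against 186 to 491, its target TIPARP at 18.8 against 50.3 to 78.7, CYP2S1 (1.28) and CYP3A5 (2.31). NRF2 targets, antioxidant genes of the factor that KEAP1 keeps low, had 15 of 30 genes under and 1 over the mean, TRIM16L at 150.3 CPM against 20.5 to 106, but the median of -1.05 became -0.05 against the median class. AKR1B10 was at 133 CPM, close to 127 in EGFR nuclei and far from 4430.3 in ALDH1A1 nuclei, and AKR1C2 (79.1 against 2011), GPX2 (24.7 against 805) and NR0B1 (1.58 against 51.9) also had their highest level in ALDH1A1 nuclei. The 13 aldehyde dehydrogenases gave 1 over, ALDH1L2 at 23.9 CPM against 6.75 to 9.83, and 4 under (median -0.32), ALDH3A1 at 59, ALDH6A1 at 2.68, ALDH1A3 at 5.97 and ALDH1A1 at 101 CPM. Of 10 ABC transporters 1 was over, ABCA5 at 71 CPM against 8.16 to 37.2, and 5 were under (median -1.29, and -0.46 against the median class), with ABCC2 at 68.1 against 33.9 to 625, ABCC3 at 46.7 against 87.4 to 515, ABCG2 at 3.96 against 9.08 to 60.0, ABCA3 at 2.99 against 12.3 to 22 and ABCC9 at 0.426 against 1.34 to 20.9. Glycolysis and hypoxia genes had a median of -0.27 (23 genes, 2 over and 7 under), with SLC2A3, a glucose transporter, at 62.9 CPM against 3.72 to 38.9 and NDRG1 at 92.2 against 29.6 to 65.5 over the mean and ENO2 at 3.59 against 13.4 to 38.4, EGLN3 at 6.70 against 13.3 to 37.7, CA9 at 8.83 against 5.58 to 68 and CA12 at 25.2 against 12.8 to 767 among those under it. Cholesterol and fatty acid synthesis had a median of -0.63 (24 genes, 8 under, and IDI1 over with 96.4 CPM against 35.8 to 60.3), and INSIG1, a sterol-regulated brake on synthesis, was at 5.12 CPM against 15.8 to 49.6, STARD4 at 1.22 against 9.82 to 20.3 and ELOVL6 at 24.3 against 38.7 to 109, below every other class in each case. Of 6 urea cycle and arginine genes 1 was under the mean (median -0.22), CPS1 at 1.95 CPM against 3.03 to 101. The 13 mitochondrial RNAs had a median of -0.42, with MT-CO1 at 1349 CPM, MT-CO3 at 1919 and MT-ND4L at 44.3, and 1 over the mean, MT-ND6, at 162 against 49.6 to 108.

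Of the 15 measured genes of the tumour suppressor list 5 were under the mean (median 0.03). MTAP and CDKN2A, neighbours on chromosome 9, were at 2.13 and 7.68 CPM, as low as in MEG3 nuclei (1.82 and 8.21), with 306 and 406 in EGFR nuclei. SMARCA4, a chromatin remodeller, was at 71.7 CPM against 34.5 to 284 and STK11, a kinase of energy sensing, at 11.1 against 13.9 to 41.5. Of 4 measured HOX genes HOXD10 was over and 2 were under, with a median of -0.12, and 1.05 against the median class. Both medians include HOXD10, so nothing is read from them or from their change of sign. HOXA3 at 4.45, HOXB6 at 3.11 and HOXB7 at 23.4 CPM lay within the range of the other classes. Their log2 ratios were -1.40, -1.15 and 0.92 to the mean and -0.99, -0.58 and 2.67 to the median class. Of 14 neuronal-type genes 4 were over and 8 under (median -3.24, and -1.39 against the median class), with RBFOX3 at 0.487 CPM against 0.698 to 149, NLGN1 at 1.10 against 1.32 to 113 and CNTN1 at 6.58 against 7.01 to 777. The 4 over it were TENM3 (185 CPM against 4.42 to 114), LSAMP (182 against 12.6 to 97.7), NCAM2 (58.5 against 0.851 to 37), adhesion molecules of neurons, and CSMD1 (52.5 against 1.23 to 6.27). Among nuclear RNAs, KCNQ1OT1, an imprinted antisense transcript, was at 1.83 CPM against 3.26 to 68.5 and NEAT1, the paraspeckle RNA, at 1808 against 872 to 2152.

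**Figure D2:**
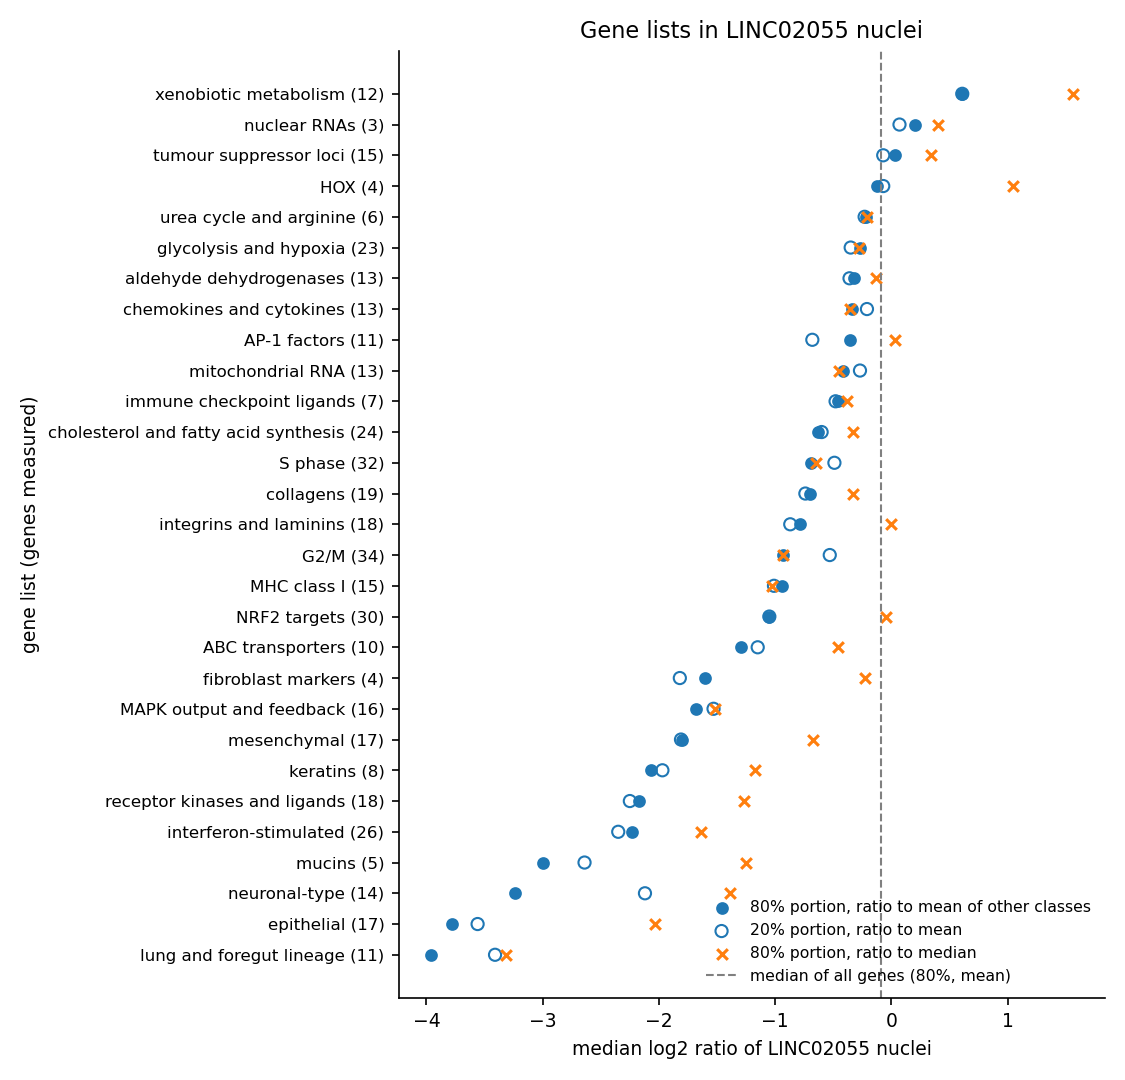
Median log2 ratio of LINC02055 nuclei for the gene lists described (y axis, number of measured genes in brackets) against the mean of the other 5 classes in the 80% portion (filled circles) and the 20% portion (open circles) and against their median in the 80% portion (crosses). The lung and foregut list (-3.96) and the epithelial list (-3.78) lie farthest left of the dashed line at -0.09, the median of all genes, and xenobiotic metabolism (0.61) farthest right. The xenobiotic median counts SULT1A1 and AHRR, which reached the minimum level through the LINC02055 nuclei alone, so nothing is read from its place.

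Cell cycle RNA, summed over each list, was lowest in these nuclei. S phase genes summed to 1712 CPM against 2525 to 3273, and G2/M genes to 2246 against 3283 to 5112. In the 20% portion the sums were 1859 against 2166 to 3400 and 2534 against 3026 to 4689.7. None of 32 S phase genes was over and 10 were under the mean (median -0.69, and -0.49 with 6 under in the 20% portion), and none of 34 G2/M genes was over and 13 were under (-0.93, and -0.53 with 5 under). Over all genes 18.1% were under the mean, and 18.3% in the 20% portion. The counts under the mean in the 20% portion are near or below that share, so nothing is read from them. BRIP1, a helicase of DNA repair, was at 37.6 CPM against 98.7 to 154, UHRF1 at 31.4 against 44.4 to 129.5 and MKI67, the proliferation marker, at 44 against 108 to 188. In the 20% portion UHRF1 was not lowest, at 53.1 CPM in members and 41.7 in ALDH1A1 nuclei. Per nucleus, G2/M genes took a median of 0.0899% of the UMIs in members and 0.179 to 0.381% in the other classes, and S phase genes 0.0948% against 0.173 to 0.309%. Over 1% of UMIs lay on G2/M genes in 51 members (4.26%, 3.19 to 5.56%), against 12 of the 297 TAGLN nuclei (4.04%), 6.85% of ALDH1A1 nuclei and 11.4 to 11.7% of the MEG3, AL356804.1 and EGFR nuclei. In the 20% portion the share was 4.98% (2.51 to 8.73%), within the range of the others, 1.92 to 9.87%. Median levels were thus lowest in the members, while the share of nuclei with much G2/M RNA was not apart from that of TAGLN nuclei.

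Open chromatin did not choose the nuclei and was compared next. A nucleus was described by components 2 to 30 of its weighted ATAC counts and its 20 nearest nuclei. Of the neighbours of a member, 83.2% on average were members themselves, although members make up 18.3% of all nuclei, and 15.3% were unassigned and 1.00% TAGLN nuclei. In 1171 members (97.8%) most of the neighbours were members, and in 5 none was. Of the 99 barcodes that the floor left out, 89 (89.9%) also lay mostly among members, as did 116 (76.3%) of the 152 that missed the lead, 44 of which (28.9%) were doublet calls, and 55 (4.80%) of the other 1146 unassigned barcodes. Other classes kept together as well. The share of neighbours from the own class was 95.3% for EGFR, 92.1% for ALDH1A1, 73.2% for MEG3, 69.0% for AL356804.1 and 53.4% for TAGLN nuclei. The ATAC data thus kept the members together, which is not particular to them, and placed most of the barcodes that the panel led but the rule left out among the members. By pooled level, TAGLN nuclei were most like the members in RNA, with r = 0.803 across 10233 genes and the others at 0.688 to 0.729, and ALDH1A1 nuclei in ATAC, with r = 0.604 across 23823 peaks and the others at 0.416 to 0.577. By the mean absolute log2 difference, however, TAGLN nuclei were closest in the 80% ATAC (0.907, and 0.969 for ALDH1A1 nuclei), and ALDH1A1 nuclei in the 20% ATAC (1.10, and 1.14 for TAGLN nuclei). These values include the 29 TAGLN nuclei of the 80% portion with a UMI of the LINC02055 panel. Their part in the likeness of TAGLN nuclei to the members was not tested.

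Among peaks with at least 20 CPM in members, 1000 of 12718 (7.86%) were at least 2-fold over the highest other class, and 168 of 6980 (2.41%) were at least 2-fold under the lowest. The peaks of either portion were called apart, and 981 of the 1000 overlapped a peak of the 20% portion, where 69.5% of them passed 2-fold again and 97% were again highest in the members. All 168 lower peaks overlapped one, and 61.3% passed and 89.3% were lowest there. Of the higher peaks 33.0% lay within 1 kb of an annotated gene start, against 75.1% of the peaks tested, and of the lower peaks 41.1% against 87.5%. Of all peaks 20.3% did, so that both sets lay near a start more often than peaks in general and less often than the tested peaks, which the minimum of 20 CPM selects. Start peaks followed the RNA. Of 364 higher genes with a start peak, 292 (80.2%) had their highest start signal in members and 142 (39.0%) by at least 2-fold, and over all 18480 genes with a start peak the shares were 23.8% and 2.71%. Of 200 lower genes with one, 129 (64.5%) had the lowest signal in members and 35 (17.5%) by at least 2-fold, against 16.1% and 2.38% of all. LINC02125 was among the clearest, with 56.1 ATAC CPM at its start against 0.0991 to 1.56, and LINC01194 with 43.2 against 0.471 to 2.02, whereas PTPRN, with 51.1 against 28 to 59.5, had an open start in every class.

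The 12 peaks with the largest ratio were at 25.2 to 72.5 CPM in members and at most 2.02 in any other class of the 80% portion. In the 20% portion their ratios were smaller, 1.21- to 7.83-fold, and 11 of the 12 passed 2-fold. In ratios a class with under 3 counts was set to 3 counts, which lowers ratios against small classes. The TAGLN nuclei, for one, held 465689 ATAC counts in the 20% portion. The part of this setting in the smaller ratios was not tested. The exception was the peak in LINC02955, at 25.9 CPM against up to 21.5. The first lay in an intron of TMTC1 on chromosome 12 (chr12:29743633-29744533), 38963 bases from the nearest start, at 72.5 CPM against 0.198 to 1.69, or 42.9-fold. A peak in an intron of SLC14A2 (chr18:45324336-45325258) was at 40.2 CPM against 0.595 to 1.35, and one in an intron of LRRC8D (chr1:89908754-89909673) at 39.3 against 0.580 to 1.35. An intergenic peak on chromosome 19 (chr19:47961724-47962539), whose nearest start is that of BSPH1, was at 25.6 CPM against 0 to 0.694. All 4 were thus almost without counts in the other 5 classes of the 80% portion. In the 20% portion the TMTC1 peak was at 64.7 CPM against 0 to 17.2, the SLC14A2 peak at 50.5 against 0 to 5.67, the LRRC8D peak at 39.5 against 0 to 4.29 and the chromosome 19 peak at 23.9 against 0 to 7.08. Their central 300 bases are printed from the hg38 plus strand as examples chosen because they differ in the motifs they hold. They do not stand for the 12 peaks as a set. Matches to the CEBP, AP-1 or TEAD letters described below are in capitals.
chr12:29743933-29744232: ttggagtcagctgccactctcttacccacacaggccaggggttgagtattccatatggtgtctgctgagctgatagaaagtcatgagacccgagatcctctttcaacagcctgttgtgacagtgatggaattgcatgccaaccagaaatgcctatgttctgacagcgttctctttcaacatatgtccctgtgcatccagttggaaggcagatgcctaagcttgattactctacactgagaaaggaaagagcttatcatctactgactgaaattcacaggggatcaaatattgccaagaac
chr18:45324647-45324946: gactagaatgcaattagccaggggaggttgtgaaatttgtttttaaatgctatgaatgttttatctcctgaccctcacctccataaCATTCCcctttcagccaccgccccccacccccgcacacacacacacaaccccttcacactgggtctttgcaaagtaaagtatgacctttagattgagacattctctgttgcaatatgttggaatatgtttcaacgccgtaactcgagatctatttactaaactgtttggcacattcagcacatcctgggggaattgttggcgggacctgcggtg
chr1:89909064-89909363: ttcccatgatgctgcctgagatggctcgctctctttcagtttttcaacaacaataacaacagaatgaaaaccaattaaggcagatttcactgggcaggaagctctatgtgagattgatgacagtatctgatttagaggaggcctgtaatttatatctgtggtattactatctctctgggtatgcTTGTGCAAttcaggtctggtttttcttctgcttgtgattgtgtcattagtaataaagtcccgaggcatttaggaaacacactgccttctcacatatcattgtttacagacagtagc
chr19:47961982-47962281: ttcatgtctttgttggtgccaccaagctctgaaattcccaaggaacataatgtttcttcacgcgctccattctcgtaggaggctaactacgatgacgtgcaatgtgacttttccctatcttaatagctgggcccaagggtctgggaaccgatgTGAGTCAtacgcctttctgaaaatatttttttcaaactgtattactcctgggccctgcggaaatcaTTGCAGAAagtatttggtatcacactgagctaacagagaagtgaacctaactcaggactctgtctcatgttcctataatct

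The sequence on chromosome 12 holds none of the letters searched for CEBP, AP-1 or TEAD, the one on chromosome 18 a TEAD match, the one on chromosome 1 a CEBP match and the one on chromosome 19 a CEBP and an AP-1 match. The other large peaks lay at the starts of LINC02125 (chr16:76634631-76635601, 56.1 CPM) and the pseudogene NOC2LP1 (chr2:130228712-130229756, 26.1), in introns of UMAD1 (chr7:7732578-7733492, 37.1), SPOCK1 (chr5:137563495-137564378, 25.2) and LINC02955 (chr12:22878773-22879729, 33.3), and between genes (chr2:131542921-131543865, 56.6, chr5:173753164-173754075, 28.2, and chr18:38718274-38719139, 26.2). The lowest peak covered the start of the histone genes H2BC11 and H2AC11 (chr6:27132434-27133335) and was at 0.989 CPM, from 8 counts, against 42.5 to 59.1, or 43.0-fold lower. The starts of BSCL2 (chr11:62709162-62710066) and DSEL (chr18:67516470-67517304) were at 0.989 CPM each against 25.8 to 32.3 and 25 to 28.9, and that of ZNF254 (chr19:24086757-24087638) at 1.11 against 20.3 to 58. An intergenic peak (chr2:231661918-231662839) was at 1.73 CPM against 49.3 to 68.7 and one in MAPK8IP1 (chr11:45899532-45900441) at 1.48 against 24.3 to 28.2. These 6 sites were open in every other class and nearly without counts in the LINC02055 nuclei of the 80% portion, and in the 20% portion they were at 1.29 to 5.18 CPM, 4.38- to 25.5-fold under the lowest other class.

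The letters of 20 motifs were searched on both strands of the central 300 bases of every peak on the chromosomes of the hg38 copy used (158289 of 158342, the others being on unplaced or alternate sequences), and a match is a description and not a bound site. The letters were TGANTCA for AP-1, GGAATG for TEAD, TTGCNNAA for CEBP, CAGGTG for the ZEB E-box, TGACNNNGC for NRF2/MAF, TGTTTAC for FOXA, GTTAATNAT for HNF1, CAAAGTCCA for HNF4, TGACGTCA for CREB/ATF, CACTTGA for NKX2, AGATAAG for GATA factors, ACAATGG for SOX, TGTGGTT for RUNX, AACCNGTT for GRHL, CCGGAAGT for ETS, AGGNGGCA for CTCF, ATGCAAAT for the POU octamer, CCGCCC for KLF/SP and GGATTA for OTX/PITX, and the last was the MEF2 motif. AP-1 and NRF2/MAF letters can overlap, as can CEBP and POU octamer letters. Over 1 kb from a start, CEBP letters were in 28.8% of the 670 higher peaks, 10.1% of the 99 lower peaks, 16.7% of all 126146 peaks, 18.8% of the 3164 distal peaks tested for being higher and 12.5% of the 870 tested for being lower, and 13.1 to 20.9% of the peaks higher in another class. AP-1 letters were in 30.7% of the higher peaks, 70.7% of the lower peaks, 37.9% of all, 42.1% of those tested for being higher, 52.2% of those tested for being lower, and 30.4 to 65.2% of those higher in another class. The higher peaks thus had the largest CEBP share of the 6 classes and an AP-1 share next to the smallest, that of the ALDH1A1 nuclei, and the lower peaks had the largest AP-1 share of the sets compared. TEAD letters were in 31.0% of the higher peaks, close to 29.3% of those tested, and in 23.3% of all peaks (21.6 to 31.6% in another class's higher peaks), and the ZEB E-box in 12.1% of the higher peaks, 16.4% of those tested and 23.7% of all (16.0 to 40.4%). The higher distal peaks had a median GC content of 46.5% and all distal peaks one of 46.3%, while the lower ones had 54.3%.

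**Figure D3:**
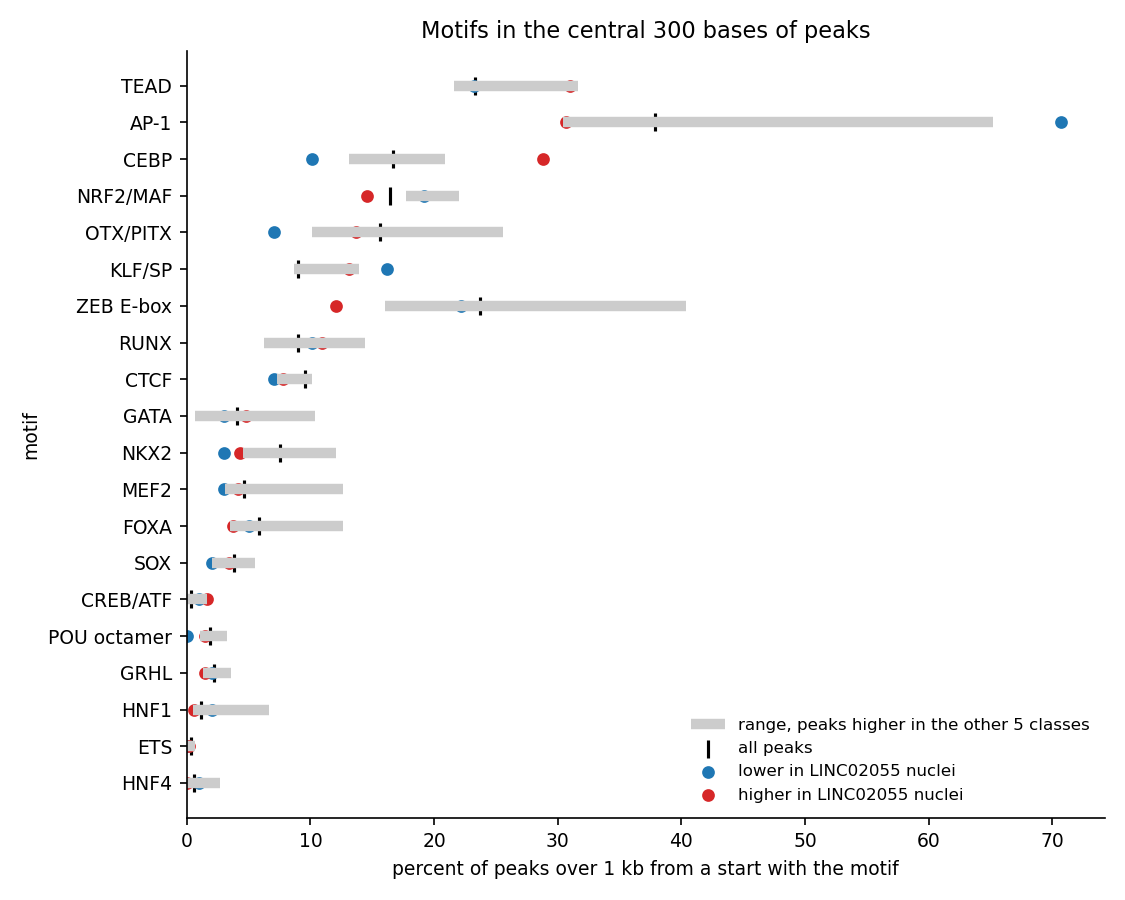
Percent of peaks over 1 kb from a gene start (x axis) whose central 300 bases hold each of 20 motifs (y axis), for peaks higher (red, 670 peaks) and lower (blue, 99 peaks) in LINC02055 nuclei, for all peaks (black tick) and for the range of the peaks higher in the other 5 classes (grey bar). CEBP lies right of the grey bar at 28.8%, the ZEB E-box left of it at 12.1%, and AP-1 in the lower peaks reaches 70.7%.

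The genomic place of the counts was described by the share of each chromosome and of 560 windows of 5 Mb with at least 50 peaks. Chromosomes 1, 3 and 20 took a larger and chromosomes 5, 7, 9, 14 and X a smaller share in LINC02055 nuclei than in any other class in all 4 libraries. Chromosome 20 took 4.92% of the ATAC counts against 2.49 to 3.61% and 3.52% of the RNA UMIs against 1.94 to 2.66%, and chromosome 7 took 4.31% against 5.01 to 7.47% of the ATAC counts. The X chromosome took 1.37% of the ATAC counts against 2.05 to 2.34%, although 17 of its 205 tested genes (8.29%) were higher.

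**Figure D4:**
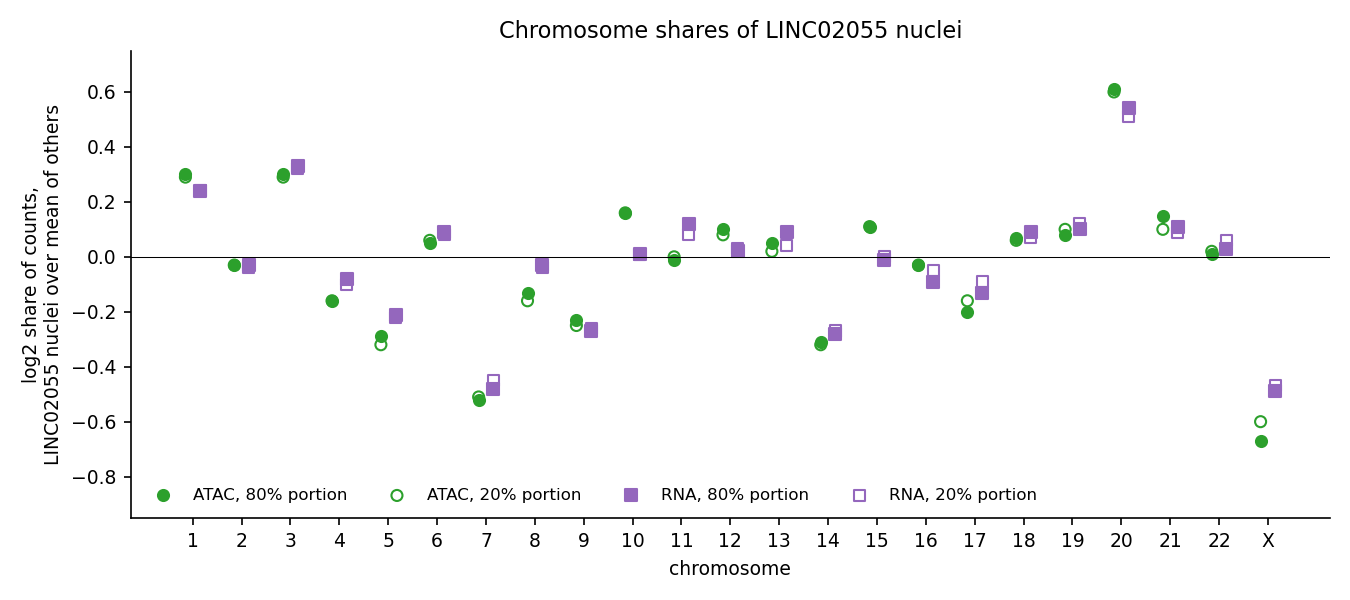
Log2 of the share of counts on each chromosome (x axis) in LINC02055 nuclei over the mean share of the other 5 classes, for ATAC (circles) and RNA (squares) in the 80% (filled) and 20% (open) portions. Chromosome 20 is highest, at 0.61 in the 80% ATAC, and the X chromosome lowest, at -0.67, and the portions lie close together.

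Of the windows 124 were above and 153 below all other classes in the 80% ATAC. By the same count another class had 55 to 142 above, the most in MEG3 nuclei, and 54 to 116 below. For the members 83 and 90 were so in all 4 libraries, with r = 0.988 between the portions for the log2 ratio across windows. In 17 windows members held at least 2 times the mean share of the other classes, against 0 to 16 in another class. The 2 highest ATAC ratios were on chromosome 12, in a block from 20 to 35 Mb with ATAC ratios of 2.91, 4.64 and 3.60 in its 3 windows, 2.78, 4.07 and 3.35 in the 20% portion, and RNA ratios of 2.96, 4.97 and 3.21. On either side the ratio was 0.550 (15 to 20 Mb) and 0.506 (35 to 40 Mb). RNA and ATAC thus moved together over this stretch. Of 43 tested genes in it 30 were higher and 38 highest in members, against 33.0% of all tested genes that were highest. Besides ITPR2 and LDHB it holds CCDC91 (934 CPM against 96.9 to 173), RASSF8 (357 against 41.6 to 66.3), DENND5B (867 against 73.3 to 208) and PPFIBP1 (609 against 81.9 to 160.4), named here for their place after their values were seen, and the TMTC1 peak. On chromosome 1, 8 windows in a row from 85 Mb on had ratios of 2.13 to 2.95, and 46 of 131 tested genes there were higher and 111 highest. Inside the 17 windows 38.6% of the tested genes and 53.3% of the tested peaks were higher, and outside them 4.66% and 5.63%. These windows were chosen by their ATAC share in members, so the gap for peaks restates that choice. They held 20.3% of the higher genes and 31.8% of the higher peaks, with a median ratio of 2.66-fold against 3.51-fold for the genes outside, and none of the 25 leading genes. The lowest windows were on chromosome 19 from 20 to 25 Mb, the site of ZNF254, with a ratio of 0.140, and on chromosome 5 from 25 to 30 Mb with 0.157. The window of CDKN2A and MTAP on chromosome 9 had 0.272. DNA content was not measured, so its part in these shares was not tested.

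Last, the members were compared with one another. A member held UMIs of a median of 12 of the 25 leading genes (10th to 90th percentile 7 to 16), and in thinned nuclei of 6, while the median was 0 in each of the other 5 classes. Of the 15 lowest genes the median was 0, against 6 to 10 in another class, and 1 member held none of the 25. Both gene sets were picked for their ratios between these classes. The gaps between classes in these medians were fixed by that choice, and nothing is read from them. Of the 12 leading peaks a member had counts in a median of 1, and 24.8% had none. Split by panel value into groups of 399, the members with low values had 1490.2 CPM summed over the 25 genes, those with middle values 1684 and those with high values 1873. The split used the panel values and the 25 genes include GRM7-AS3, whose reads may be mixed with those of a panel gene, so nothing is read from this rise. The 15 lowest genes summed to 113, 43.1 and 39.5 CPM. The 12 leading peaks, which the panel did not use, summed to 462, 482 and 455 ATAC CPM, against 6.22 to 13.5 in the other classes. Doublet calls numbered 20, 5 and 2. The split used the values that chose the nuclei, and the 15 genes and 12 peaks were picked for their ratios in members. These sums are therefore a description, and the part of the doublet calls in them was not tested.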

How the data were processed

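RNA UMIs per gene and ATAC counts per peak were measured in 1 library of each kind from the 80% and from the 20% portion of one mixture. Per the file headers and the labels, the authors made the deposited count matrices with Cell Ranger ARC 2.0.0 on GRCh38 with peaks called per portion, and the deposited long-read count is a total per barcode. The counts are not normalized, and the authors' filtered barcodes were used without a further filter. From them CPM were computed per class with Python 3.11.15, numpy 2.4.6, pandas 2.3.3 and scipy 1.17.1. In ratios a class with under 3 counts was set to 3 counts, which lowers ratios against thin classes, more so in the 20% portion. A gene or peak was called past 2-fold with at least 20 CPM. The thinnest class of the 80% portion, the EGFR nuclei, held 4297427 UMIs, and that of the 20% portion, the TAGLN nuclei, held 639725. Scrublet (scanpy 1.11.5, expected rate 0.06) marked doublets, which were kept. Nuclei were thinned to 5000 UMIs where genes per nucleus were compared. ATAC neighbours came from latent semantic indexing, and windows of 5 Mb were used with at least 50 peaks. Genes were placed with GENCODE 44 on hg38 by gene ID, which matched 36366 of 36601 genes, and sequences were read from hg38.

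Genes named are the 25 with the largest ratio over the highest other class, the 15 lowest against the lowest, the 5 with the most UMIs, 4 per list with the largest ratio to the mean, the neighbours within 500 kb of the panel genes and the 10 most like LINC02055, and peaks are the 12 highest and 6 lowest. Cell type markers (EPCAM, CDH1 and keratins among them) were listed as well. Some genes and a gene list that these rules cover are not reported here. Others are said to have been chosen after their values were seen. The members, lists and thresholds were chosen with earlier results of these data known. With 1 library per portion no test was run, and intervals are exact. On simulated counts of 36601 genes, members against the other classes in the 80% RNA, the calls found 100.0% of the genes changed 3-fold and of those changed 6-fold, and none of the unchanged genes. All simulated classes had the same profile apart from the changed genes, with counting noise only. Differences among the other classes, free RNA and doublets were absent, so this checks the working of the calls and not their accuracy in these data.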

Additional observations from a re-analysis of the deposited data

How the results depend on the processing

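Of 78 values recomputed for the main comparisons, 60 stayed within the spread or within 1.5 times the count, 18 moved and none changed direction. Among single gene lists the AP-1 factor median turned from -0.36 to 0.03 against the median class. The HOX median turned from -0.12 to 1.05, but both values include HOXD10. That gene reached 20 CPM in no other class of the 80% portion, so nothing is read from the HOX turn. Members made up 14.0% of the 80% portion with a panel floor of 0.4, 17.1% with a lead of 3 times, 17.1% with the 95th percentile as scale and 15.7% with LINC02055 as the only panel gene, and 11.4% and 14.2% of the 20% portion with the floor of 0.4 and with LINC02055 alone. Genes higher, genes lower, peaks higher and peaks lower numbered 181, 63, 408 and 54 at 4-fold, 733, 419, 5562 and 1456 with a minimum of 5 CPM, and 951, 599, 2177 and 344 against the mean of the other classes. Under the other settings they ranged from 414 to 466, 190 to 244, 929 to 1095 and 149 to 207. Lists with a median of -1 or less numbered 12 against the mean and 9 against the median class, 8 of them shared. Among settings added after the data were seen, leaving out the TAGLN nuclei with a panel UMI gave 454 higher genes and 1028 higher peaks, and leaving out the 17 windows gave 347 and 682. No paired analysis was possible because each portion has 1 library of a kind. Depth limits single genes little, but in the 20% portion the smallest classes have 52 and 55 nuclei, and free RNA and doublets were not removed.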

Other observations

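Melanoma antigen (MAGE) genes, cancer-testis antigens of the X chromosome, were looked at as a family after MAGEA1 and MAGEA10 had been seen among the leading genes. Of 26 annotated MAGEA, MAGEB and MAGEC genes, 9 had at least 20 CPM in any class of the 80% portion. MAGEA4 alone reached that level in a class other than the LINC02055 nuclei, so the other 8 passed only through the class where they are high, and nothing is read from their number. Together the 26 genes took 1076 CPM in these nuclei, against 91.6 in TAGLN, 53 in AL356804.1, 51.9 in ALDH1A1, 39.1 in EGFR and 31.7 in MEG3 nuclei, and 1033 CPM against 30.2 to 192 in the 20% portion. MAGEA4 was at 342 CPM against 10.2 to 28.3, MAGEC2 at 141 against 3.89 to 15.8 and MAGEB2 at 83.5 against 2.47 to 6.05. MAGEA3 (50.1 CPM) and MAGEA6 (44.2) are near-identical copies, and how their reads were divided is uncertain.

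The variance over mean of single genes among the LINC02055 nuclei was computed in nuclei thinned to 5000 UMIs, and the genes below were chosen after values were seen. MALAT1, a nuclear RNA, had the highest ratio, 41, and the mitochondrial RNAs MT-ATP6 (4.77), MT-CO3 (4) and MT-CO2 (3.44) were also among the highest. KRT17 had a ratio of 6.10, with UMIs in 63.4% of the thinned nuclei, at least 10 in 56 of them and 48 in one. CGA, the alpha subunit shared by glycoprotein hormones, had a ratio of 3.90 with UMIs in 29.2% of the thinned nuclei, and its pooled level was 142 CPM against 7.68 to 19.5 in the other classes and 133 against 4.58 to 36.0 in the 20% portion. CCN1, a matrix protein induced through YAP and TEAD factors, had a ratio of 3.56 and a pooled level of 539 CPM against 55.8 to 773. TOP2A, UBE2C and CENPF, genes of mitosis, had ratios of 3.90, 3.13 and 2.87.

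Genes of factors that bind the motif letters were looked up after the motif counts. CEBPB was at 372 CPM in LINC02055 nuclei against 89.5 to 173, CEBPD at 125 against 69.0 to 103 and CEBPA at 2.31 against 0.233 to 7.58. JUNB was at 148 CPM against 72.1 to 290.5, within the range of the others, while JUN and FOSL1 were below them. ZEB1 was at 207 CPM against 51.8 to 155 and TEAD1 at 370.3 against 179 to 414. Whether these factors bound the peaks was not measured.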
